A study of Mus musculus with 6 samples.

Results

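The 6 genes described here encode the INK4 inhibitors of cyclin-dependent kinases (Cdkn2a, Cdkn2b, Cdkn2c and Cdkn2d) and the Kip inhibitors Cdkn1b and Cdkn1c. They were taken by name: every probe set of the array whose single gene symbol in the platform annotation is one of them was kept, with no filter on brightness. That gave 7 probe sets of 45037, and 6 genes of 18193 with a probe set of their own. Cdkn1b had 2 probe sets and each other gene had 1. The question was whether the Cdkn2a locus, a classical target of Polycomb silencing, was expressed more in T cells that lack Ezh2, and whether the related inhibitors moved with it.

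The samples were 3 arrays of Ezh2 deficient lymph node T cells and 3 arrays of Ezh2 fl/fl lymph node T cells, all mouse total RNA on a single-colour Affymetrix design. In the usual notation fl/fl means that both Ezh2 alleles carry loxP sites and are intact until a recombinase acts. The labels name no recombinase, promoter, deleted exons, strain, sex or age. They do not say either that each array holds a separate animal, so p-values measure the spread between these arrays, which may be partly technical. The cells had T cell markers at high brightness in both groups. The summed level of 9 of them was 75534 to 77120 in Ezh2 deficient and 76692 to 77889 in Ezh2 fl/fl arrays. Of these 9, 3 were higher and 6 lower in Ezh2 deficient arrays. Cd8b1 was lower in every Ezh2 deficient array than in every Ezh2 fl/fl array, as for 7% of all genes. Its means were 10914 in Ezh2 deficient and 12247 in Ezh2 fl/fl arrays (limma unadjusted p = 0.0137, adjusted p = 0.702).

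INK4 proteins bind Cdk4 and Cdk6 and keep them from pairing with D cyclins, so that the retinoblastoma protein stays active and holds the cell before S phase. Kip proteins instead bind complexes of cyclin E or cyclin A with Cdk2. The Cdkn2a gene is unusual in encoding 2 proteins from separate first exons: p16INK4a, an INK4 inhibitor, and p19ARF, which restrains Mdm2 and thereby stabilises p53. In many cell types the Cdkn2a and Cdkn2b genes are kept silent by H3K27 methylation, the mark that Ezh2 writes within Polycomb repressive complex 2, and by Bmi1 and its partners in Polycomb repressive complex 1. In resting T cells Cdkn1b is a well-known brake on division, and Cdkn2c is known in mouse as a limit on lymphocyte proliferation.

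Cdkn2a, Cdkn2b and Cdkn2c lie on mouse chromosome 4, with Cdkn2a and Cdkn2b next to each other, while Cdkn2d lies on chromosome 9, Cdkn1b on 6 and Cdkn1c on 7. The RefSeq promoter table (build GRCm38.p6, 250 bases before to 50 after a start site) held 7 promoters for 5 of the 6 genes, with none for Cdkn1c. The promoters of the Cdkn2a and Cdkn2b locus are shown because the question turns on it, and that of Cdkn2c because its probe set had the smallest p of the 7. Each reads 5′ to 3′ along the gene, with GC boxes (GGGCGG, either strand, a binding motif of Sp factors) in capitals.
Cdkn2a, upstream start (the p19ARF first exon), chr4:89294570-89294869, minus strand: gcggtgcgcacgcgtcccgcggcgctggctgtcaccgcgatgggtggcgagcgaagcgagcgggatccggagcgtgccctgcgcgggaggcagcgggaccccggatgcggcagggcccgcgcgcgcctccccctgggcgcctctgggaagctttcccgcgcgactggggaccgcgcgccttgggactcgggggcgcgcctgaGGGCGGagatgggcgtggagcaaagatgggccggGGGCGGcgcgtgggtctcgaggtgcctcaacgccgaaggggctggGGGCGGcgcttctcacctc
Cdkn2a, downstream start (the p16INK4a first exon), chr4:89282143-89282442, minus strand: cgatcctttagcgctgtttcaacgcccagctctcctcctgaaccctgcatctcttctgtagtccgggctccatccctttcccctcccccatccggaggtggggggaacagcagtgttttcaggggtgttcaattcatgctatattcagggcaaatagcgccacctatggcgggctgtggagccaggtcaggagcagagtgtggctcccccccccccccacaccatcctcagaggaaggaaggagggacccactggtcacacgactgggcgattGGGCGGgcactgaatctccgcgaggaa
Cdkn2b, chr4:89310983-89311282, minus strand: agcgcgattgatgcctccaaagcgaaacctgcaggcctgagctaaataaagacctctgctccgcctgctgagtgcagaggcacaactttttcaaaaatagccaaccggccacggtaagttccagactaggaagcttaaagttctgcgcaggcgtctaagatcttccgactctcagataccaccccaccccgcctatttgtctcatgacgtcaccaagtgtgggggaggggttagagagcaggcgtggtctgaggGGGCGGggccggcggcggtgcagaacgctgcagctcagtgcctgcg
Cdkn2c, upstream start, chr4:109666707-109667006, minus strand: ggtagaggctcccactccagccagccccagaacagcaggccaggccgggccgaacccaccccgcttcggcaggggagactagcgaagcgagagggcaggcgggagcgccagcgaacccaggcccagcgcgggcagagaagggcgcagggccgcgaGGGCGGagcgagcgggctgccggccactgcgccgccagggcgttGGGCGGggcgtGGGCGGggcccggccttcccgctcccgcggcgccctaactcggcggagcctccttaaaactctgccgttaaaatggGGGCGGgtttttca

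These promoters differed in CG content, the feature that marks the CpG islands at which Polycomb complexes gather. The upstream Cdkn2a promoter held 45 CG dinucleotides, a number reached by 1.93% of 32851 promoters of the same length, whose median was 7. The downstream Cdkn2a promoter, 12427 bases away, held 12, a number reached by 39.6% of promoters. Cdkn2b held 18, and the printed Cdkn2c promoter held 33 (reached by 8.56%) against 8 at its other start. Cdkn1b held 30 and Cdkn2d 22. GC boxes were found in 6 of the 7 promoters, from 1 to 5 each, against 35.7% of all promoters. The other motifs searched on both strands had no match in any of the 7: TTTGGCGC and TTTCGCGC of E2F factors (0.813% of all promoters), GTAAACA of forkhead factors (3.65%) and CAGGTG, an E-box (20.2%). Since only the GC box matched, no matches of different motifs overlapped. A match or its lack describes the letters and says nothing of binding.

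Ezh2 was lower in every Ezh2 deficient array than in every Ezh2 fl/fl array. Its single probe set was at 282.4, 288.9 and 275.8 in Ezh2 deficient arrays and at 579.2, 683.8 and 801.2 in Ezh2 fl/fl arrays. The values here and below are quantile normalised intensities, a relative brightness. Differences are Ezh2 deficient minus Ezh2 fl/fl on the scale of log2(intensity + 43.3), which understates the change of dim probe sets. For Ezh2 the difference was -1.16 (SE 0.13), with an unadjusted p of 2.05e-05 by limma, or 0.241 as adjusted p in the fit of the whole array. The labels do not say which exons were removed, so whether this probe set lies inside the deletion, and what its remaining brightness reads, was not tested.

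Across the whole array limma called 1 of 45037 probe sets (0.00222%) at an adjusted p under 0.05, and 0 of the 7 INK4 and Kip probe sets. At an unadjusted p under 0.05 stood 1 of the 7, against 6.51% of all probe sets. It was higher in Ezh2 deficient arrays, as were 3.43% of all, and 0 of the 7 were lower at that level, against 3.08%. The groups did not overlap, with Ezh2 deficient arrays higher, for 2 of the 7, against 6.07% of all, and for 0 of the 7 with Ezh2 deficient arrays lower, against 6.08%. The differences of the 7 ran from -0.32 to 0.40 with a median of 0.08, where the median of all probe sets was -0.003, and 5 were positive where 49.3% of all were. With 7 probe sets such counts describe these genes and show nothing particular to them.

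**Figure D1:**
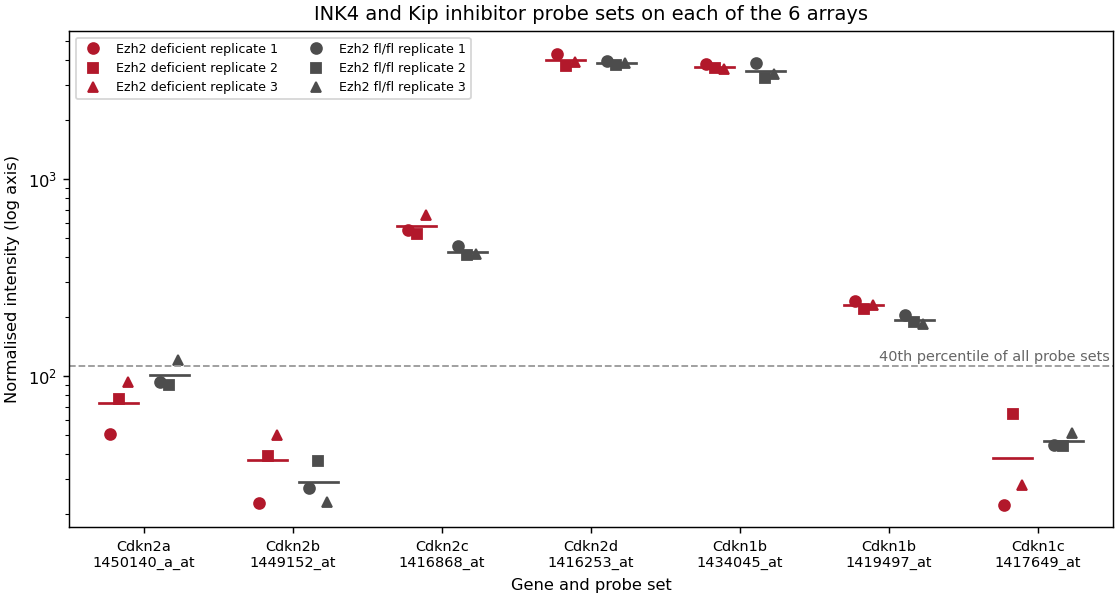
Normalised intensity (log axis) of the 7 probe sets, with 1 point per array, Ezh2 deficient left of Ezh2 fl/fl, and bars at the group means. The dashed line is the 40th percentile of all probe sets. Cdkn2a, Cdkn2b and Cdkn1c have means below it in both groups, and Cdkn2c is separated between the groups.

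The Cdkn2a probe set, which reads the gene that the Polycomb question is about, was dim in both groups, with a lower mean in Ezh2 deficient than in Ezh2 fl/fl arrays. Its values were 50.5, 76.1 and 93.2 in Ezh2 deficient arrays and 92.8, 90.5 and 120.5 in Ezh2 fl/fl arrays. The 2 lowest values were those of Ezh2 deficient arrays, and the groups overlapped because Ezh2 deficient replicate 3 reached the level of Ezh2 fl/fl replicates 1 and 2. The means were 73.2 ± 21.5 in Ezh2 deficient and 101 ± 16.7 in Ezh2 fl/fl arrays (SD, n = 3 each). The difference was -0.32 (SE 0.21, limma p = 0.166, adjusted p = 0.829), with an exact two-sided permutation p of 0.3, where 3 arrays against 3 allow no p below 0.10.

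The 95% interval of the Cdkn2a difference ran from -0.81 to 0.17. Its upper end corresponds to an intensity of 118 in Ezh2 deficient arrays, against 101 in Ezh2 fl/fl arrays, so a larger increase in the brightness of this probe set lies outside the interval. Over the 13 alternative settings the upper end ran from 0.07 to 0.35. The difference ran from -0.45 (without Ezh2 deficient replicate 3) to -0.16, always negative. Both the 0.07 and the -0.16 came from adding 173 in place of 43.3, a scale that shrinks the differences of dim probe sets. Without Ezh2 deficient replicate 1 the difference was -0.17. Under the deposited scaling the groups just separated, with 47.7, 74.5 and 90.4 in Ezh2 deficient arrays all below 102.5, 91.2 and 119.6 in Ezh2 fl/fl arrays. The mean brightness of the probe set stood at percentile 32.9 of all probe sets. Brightness mixes abundance with probe affinity, no detection calls were used, and how this probe set responds to a rare transcript was not tested. In RNA of whole cell samples, fewer cells of a type and less RNA per cell cannot be told apart.

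The annotation ties the Cdkn2a probe set to a single transcript record, NM_009877, one of 2 that RefSeq lists for the gene. Its name ends in _a_at, which in Affymetrix naming marks a probe set that can match several transcripts of 1 gene. The probe sequences were not used here, so whether the probe set reads the p19ARF transcript, the p16INK4a transcript or both was not tested. The Cdkn2a values and their interval hold only for what this probe set reads.

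Cdkn2b, which encodes p15INK4b and is induced by TGF-beta in many cells, was near the floor of the array. It was at 22.6, 39.4 and 50.2 in Ezh2 deficient arrays and at 27.1, 37.1 and 22.9 in Ezh2 fl/fl arrays. The lowest and the 2 highest of the 6 values all came from Ezh2 deficient arrays. The difference was 0.15 (95% interval -0.26 to 0.56, limma adjusted p = 0.912), and the upper end corresponds to an intensity of 62.7, against 28.8 in Ezh2 fl/fl arrays. On all 6 arrays the value lay below the 40th percentile of brightness. Leaving out single arrays moved the difference: it was 0.03 with Ezh2 deficient replicate 3 left out, or 0.29 with replicate 1 of that group left out.

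Cdkn2c, which encodes p18INK4c, had the largest positive difference of the 7 and the only interval that left out 0. It was at 554.0, 528.5 and 655.9 in Ezh2 deficient arrays and at 458.2, 412.1 and 414.2 in Ezh2 fl/fl arrays. Every Ezh2 deficient value lay above every Ezh2 fl/fl value, and the means were 579 ± 67.4 in Ezh2 deficient and 428 ± 26 in Ezh2 fl/fl arrays (SD, n = 3 each), a ratio of 1.35. The difference was 0.40 (SE 0.11, 95% interval 0.14 to 0.65), with a limma p of 0.00729 before adjustment. It ranked 504 of 45037 by p and did not pass over all probe sets (limma adjusted p = 0.651). The exact permutation p was 0.1, the smallest this design allows. Over the 14 alternatives the difference ran from 0.31 to 0.45 and the adjusted p from 0.576 to 0.876, so that the direction held in all of them and the threshold was passed in 0.

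Cdkn2d, which encodes p19INK4d, was bright and even across all arrays. It was at 4318.8, 3762.4 and 3941.5 in Ezh2 deficient arrays and at 3957.8, 3775.8 and 3869.8 in Ezh2 fl/fl arrays. The Ezh2 fl/fl values all lay within the range of the Ezh2 deficient ones. The difference was 0.05 (95% interval -0.10 to 0.20, limma adjusted p = 0.922), so a change in brightness beyond a factor of 0.93 to 1.15 lies outside the interval. Without Ezh2 deficient replicate 1 the difference was -0.01.

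Cdkn1b, which encodes p27Kip1, was read by 2 probe sets. The one at percentile 96.2 of brightness was at 3825.9, 3675.8 and 3636.5 in Ezh2 deficient arrays and at 3880.7, 3238.2 and 3424.8 in Ezh2 fl/fl arrays. Only Ezh2 fl/fl replicate 1 broke the separation, lying above all 3 Ezh2 deficient arrays. Its difference was 0.08 (95% interval -0.09 to 0.25, limma adjusted p = 0.878). Leaving out Ezh2 fl/fl replicate 1, it was 0.16, and leaving out Ezh2 fl/fl replicate 2 it was 0.03. The first of these settings gave an unadjusted p of 0.0308 by limma and an adjusted p of 0.747. Under median centring of the deposited values the difference of this probe set was 0.19 (limma unadjusted p = 0.0327, adjusted p = 0.708). The one at percentile 56.0 was at 240.4, 219.1 and 228.4 in Ezh2 deficient arrays and at 203.9, 187.8 and 184.3 in Ezh2 fl/fl arrays. Its groups did not overlap, with a difference of 0.21 (95% interval -0.11 to 0.53, limma adjusted p = 0.829). Under the deposited scaling they did overlap, since Ezh2 fl/fl replicate 1 reached 223.8 where Ezh2 deficient arrays were at 233.7, 216.8 and 221.7. Both probe sets thus had a small positive difference that did not pass, and Ezh2 fl/fl replicate 1 was the highest of its group on both.

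Cdkn1c, which encodes p57Kip2 and is expressed from the maternal allele only, was near the floor of the array. It was at 22.2, 64.5 and 28.0 in Ezh2 deficient arrays and at 44.9, 44.3 and 51.6 in Ezh2 fl/fl arrays. Ezh2 deficient replicate 2 was the highest of the 6 and the other Ezh2 deficient arrays the lowest. The difference was -0.18 (95% interval -0.67 to 0.31, limma adjusted p = 0.91). Leaving out Ezh2 deficient replicate 2, it was -0.40, with an unadjusted p of 0.045 by limma and an adjusted p of 0.873. It was -0.04 with Ezh2 deficient replicate 1 left out instead, or -0.10 with replicate 3 of that group left out. The upper end of the interval corresponds to an intensity of 68.5, against 46.9 in Ezh2 fl/fl arrays.

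**Figure D2:**
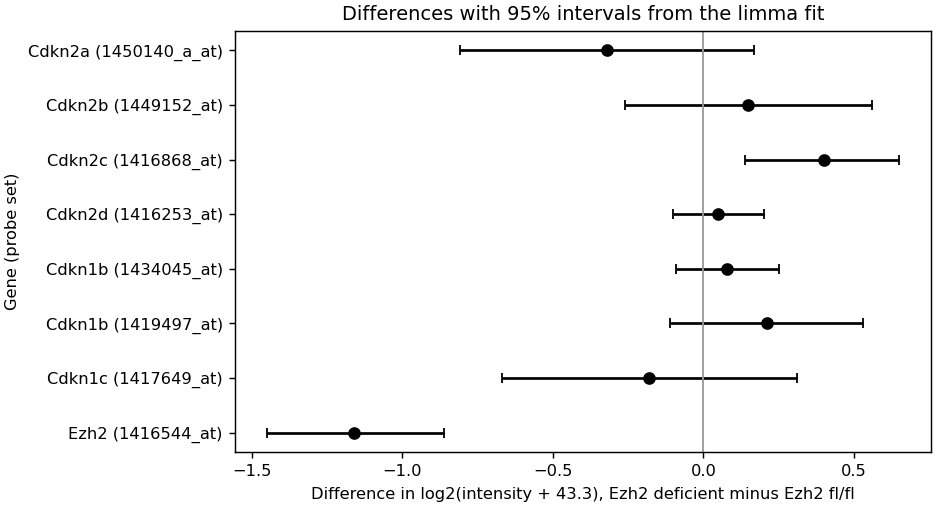
Difference in log2(intensity + 43.3) between Ezh2 deficient and Ezh2 fl/fl arrays for the 7 probe sets and Ezh2, with points at the limma estimate and bars for the 95% interval. The interval of Cdkn2c runs from 0.14 to 0.65, those of the other 6 inhibitor probe sets include 0, and that of Ezh2 lies below 0.

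The genes next to Cdkn2a and Cdkn2b gave no call either. Taking the 5 nearest measured genes on each side, 6 of 10 had a positive difference and 0 passed the limma test (1 higher and 1 lower at an unadjusted p under 0.05). On the side of Cdkn2a the nearest was Mtap, which encodes an enzyme of methionine salvage. Its brightest probe set was at 1859.9, 2046.2 and 2190.2 in Ezh2 deficient arrays and at 1802.7, 2085.9 and 2178.3 in Ezh2 fl/fl arrays, a difference of 0.01 (95% interval -0.20 to 0.22), while 3 further Mtap probe sets gave 0.05, 0.01 and -0.04. The sign of the Mtap difference depended on the setting.

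On the side of Cdkn2b the nearest measured gene was Dmrta1, which encodes a DM domain transcription factor. It was at 163.2, 140.0 and 123.3 in Ezh2 deficient arrays and at 59.8, 123.9 and 38.1 in Ezh2 fl/fl arrays. The groups met at 123.3 in Ezh2 deficient replicate 3 and 123.9 in Ezh2 fl/fl replicate 2, and the other Ezh2 fl/fl arrays were lower. The difference was 0.72 (95% interval 0.07 to 1.37), with an unadjusted p of 0.0334 by limma and an adjusted p of 0.742. Dmrta1 was dim, at percentile 37.0 of brightness, and was read by 1 probe set. Its difference ran from 0.36 to 1.02 over 13 alternatives. The 0.36 came from adding 173 in place of 43.3, and leaving out single arrays gave 0.49 to 1.02.

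**Figure D3:**
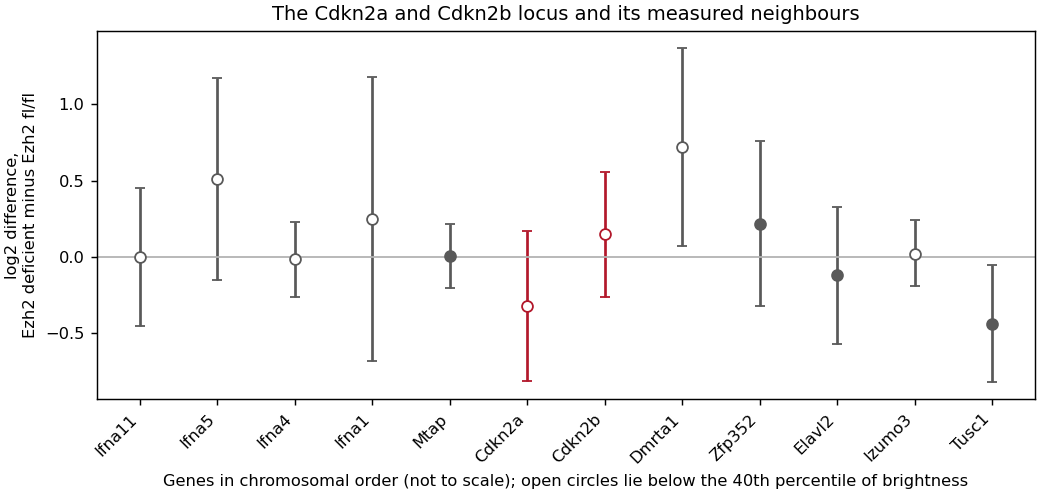
Difference in log2(intensity + 43.3) with its 95% interval for Cdkn2a, Cdkn2b and the 5 nearest measured genes on each side, in chromosomal order and not to scale. Open circles have a mean below the 40th percentile of brightness. Mtap lies at 0.01, Cdkn2a at -0.32, Cdkn2b at 0.15 and Dmrta1 at 0.72.

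At the other loci the groups overlapped for every nearest measured gene. Beside Cdkn1b, the noncoding transcript Lockd was at -0.06 and 2810454H06Rik at 0.07. Beside Cdkn1c in its imprinted domain, the potassium channel gene Kcnq1 was at 0.44 and the transporter gene Slc22a18 at 0.19, both dim, with Kcnq1 at 44.2, 66.2 and 163.4 in Ezh2 deficient arrays and 55.9, 43.0 and 48.9 in Ezh2 fl/fl arrays. That difference rested mostly on Ezh2 deficient replicate 3, without which it was 0.08, and the Slc22a18 difference ran from 0.07 to 0.41 when single Ezh2 fl/fl arrays were left out. Beside Cdkn2c, 9630013D21Rik was at 0.03 and Faf1, which encodes a Fas-associated factor, at -0.05. Beside Cdkn2d, the gene Kri1 was at -0.02 and the adaptor subunit gene Ap1m2 at -0.14. Over all 50 neighbours 22 differences were positive and 0 passed the limma test, with 3 higher and 2 lower at an unadjusted p under 0.05. Over all 18193 genes, each read by its brightest probe set, 7.35% had an unadjusted p under 0.05 in either direction, 47.1% had a positive difference and 0 passed. By direction, 3.56% of all genes stood at that level with Ezh2 deficient arrays higher and 3.8% with them lower. The neighbours' median was -0.01, the same as for all genes.

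Genes for the kinases that the INK4 inhibitors bind, and for the proteins downstream of them, split evenly by direction. Of 18 genes for D cyclins, Cdk4, Cdk6, the retinoblastoma family and E2F factors, 9 were higher and 9 lower (median 0.00), and 0 passed the limma test. At an unadjusted p under 0.05 stood 1, Rbl1, which encodes the pocket protein p107. Rbl1 was at 1794.9, 1747.5 and 1754.0 in Ezh2 deficient arrays and at 1477.8, 1501.8 and 1628.7 in Ezh2 fl/fl arrays. The groups did not overlap with Ezh2 deficient arrays higher, as for 5.89% of all genes, and the difference was 0.20 (SE 0.06, limma adjusted p = 0.707), with its other probe sets at 0.37, 0.12 and -0.14. E2f2, an activating E2F factor, was at 0.26 on its brightest probe set and at -0.34 on the other. Without Ezh2 deficient replicate 2, the highest of the 6 arrays, the 0.26 became 0.11.

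Genes for Cdk2, its cyclins and the turnover of p27 split nearly evenly as well. Of 13 measured, 6 were higher and 7 lower, the median was -0.01 and 0 passed the limma test. Fbxw7, which encodes the substrate receptor that marks cyclin E for destruction, averaged 806 ± 9.25 in Ezh2 deficient and 677 ± 87.6 in Ezh2 fl/fl arrays (SD, n = 3 each). Its difference was 0.24 (limma adjusted p = 0.758), with an unadjusted p of 0.043, but -0.13 on its other probe set. Cul1, the scaffold of the ligase that removes p27, was at 0.15 (limma adjusted p = 0.792). Skp2, the receptor that hands p27 to that ligase, was at -0.13 and was picked with its value known.

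Of 6 measured genes that act with p19ARF and p53, upstream or downstream, 4 were higher (median 0.04), and 0 passed the limma test. Trp53 itself was not analysed here. Cdkn1a, which encodes the third Cip and Kip inhibitor p21 and is a p53 target, was at 204.5, 235.2 and 225.4 in Ezh2 deficient arrays and at 153.5, 194.2 and 165.5 in Ezh2 fl/fl arrays. Its groups did not overlap, and the difference was 0.31 (95% interval -0.05 to 0.67, limma adjusted p = 0.792). The other Cdkn1a probe set was near the floor, with a difference of 0.07. Trip12, a ubiquitin ligase of ARF, was at 0.10 on its brightest probe set. Its other 6 were at 0.01 to 0.07, except for a single probe set at 0.36 (limma unadjusted p = 0.025, adjusted p = 0.732). The 0.10 ran from 0.02 to 0.17 when single Ezh2 fl/fl arrays were left out.

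Among 14 genes known to repress Cdkn2a or Cdkn2b, 5 were higher and 9 lower (median -0.06), and 0 passed the limma test over all probe sets. The 9 lower include Ezh2 itself, the gene by which the groups were defined. Over all genes 47.1% had a positive difference. After Ezh2 the smallest p belonged to Bmi1, a Polycomb repressive complex 1 subunit. Bmi1 was at 1857.8, 1892.3 and 1787.4 in Ezh2 deficient arrays and at 1975.8, 3136.4 and 2540.9 in Ezh2 fl/fl arrays. All Ezh2 deficient values lay below all Ezh2 fl/fl values, as for 7% of all genes. The difference was -0.43, with an unadjusted p of 0.018 by limma and an adjusted p of 0.707, and -0.53 on its other probe set, where the groups did not overlap either. Without Ezh2 fl/fl replicate 2 the first of these was -0.27, and without Ezh2 fl/fl replicate 1 it was -0.60. Of 7 genes known to activate the locus, 3 were higher and 4 lower (median 0.00), and 0 passed the limma test. Kdm6b, which encodes an H3K27 demethylase, averaged 1285 ± 130 in Ezh2 deficient and 1576 ± 121 in Ezh2 fl/fl arrays (SD, n = 3 each). Its groups did not overlap, with a difference of -0.29 (limma adjusted p = 0.707) and an unadjusted p of 0.0157, but 0.02 and -0.07 on further Kdm6b probe sets. Ets2 was at 0.20 on its brightest probe set and at -0.13 and 0.57 on dim ones, and the 0.20 became 0.08 with Ezh2 fl/fl replicate 1 left out, or 0.35 with replicate 3 of that group left out. The 8 genes that regulate Cdkn1b transcription split evenly, 4 higher and 4 lower (median 0.01), and 0 passed. Men1, which encodes menin, was at -0.19 and the kinase gene Akt2 at 0.14, with 0.12 and 0.03 for the other Men1 probe sets and 0.36 and -0.21 for the other Akt2 ones.

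**Figure D4:**
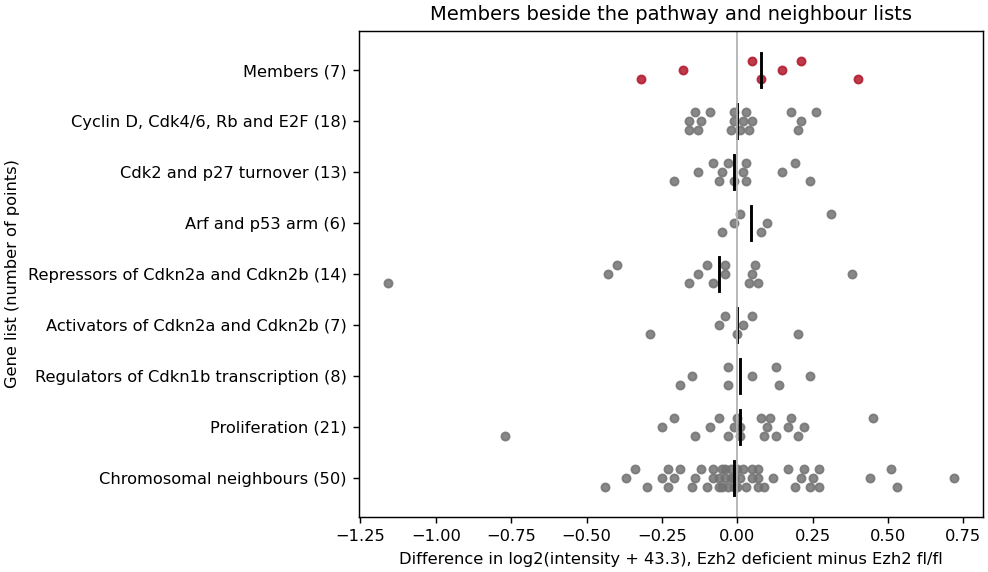
Difference in log2(intensity + 43.3), Ezh2 deficient minus Ezh2 fl/fl, for the 7 member probe sets and for each gene of the pathway lists and chromosomal neighbours (brightest probe set), with a black bar at each list's median. The medians of the lists lie from -0.06 to 0.04, and Ezh2 at -1.16 is the lowest point of all.

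Genes of dividing cells gave no call. Of 21 measured, 13 were higher and 8 lower (median 0.01), and 0 passed the limma test. Their summed level was 28294 to 31533 in Ezh2 deficient and 29379 to 31126 in Ezh2 fl/fl arrays, so the groups overlapped. Mcm2, a subunit of the replicative helicase, was at 3267.7, 1703.3 and 1228.0 in Ezh2 deficient arrays and at 3544.1, 3244.8 and 3060.2 in Ezh2 fl/fl arrays on its brightest probe set. The low values of Ezh2 deficient replicates 2 and 3 gave a difference of -0.77, with an unadjusted p of 0.0321 by limma and an adjusted p of 0.74, but the other Mcm2 probe set was at 0.05. Without Ezh2 deficient replicate 3 the -0.77 became -0.46, and without Ezh2 deficient replicate 1 it became -1.15. Plk1, a mitotic kinase, was at 0.45 with overlapping groups, at 0.20 without Ezh2 fl/fl replicate 1 and at 0.63 without Ezh2 fl/fl replicate 3.

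For markers of other cells the summed levels overlapped between groups, except those of erythroid cells. The summed level of 5 B cell markers was 1225 to 1317 in Ezh2 deficient and 1234 to 1339 in Ezh2 fl/fl arrays, and that of 6 stroma and endothelium markers 1557 to 1658 in Ezh2 deficient and 1590 to 1999 in Ezh2 fl/fl arrays. Of 6 myeloid markers 0 had a positive difference, with sums of 1633 to 2016 in Ezh2 deficient and 1898 to 2013 in Ezh2 fl/fl arrays. The 5 dendritic cell markers summed to 615 to 691 in Ezh2 deficient and 643 to 962 in Ezh2 fl/fl arrays, and the 3 NK cell markers to 1084 to 1472 in Ezh2 deficient and 932 to 1229 in Ezh2 fl/fl arrays. The sum of 2 erythroid markers did not overlap, at 179 to 214 in Ezh2 deficient and 224 to 300 in Ezh2 fl/fl arrays. These sums lean on their brightest members, such as Cebpb for the myeloid, Eomes for the NK and Pecam1 for the stroma and endothelium list. Ncr1 and Klra8, the other measured NK markers, lay below the 40th percentile of brightness. Whether the bright members read the named cells or the T cells themselves was not tested, so these sums are a weak measure of other cells. Single markers whose groups did not overlap, picked with their values known, were Csf1r (-0.42), Fcgr3 (-0.41), Pecam1 (-0.20), Pdgfra (-0.21) and Hba-a1 (-0.38), lower in Ezh2 deficient arrays, and Col1a1 (0.29), higher in them. None of these 6 passed the limma test, while at an unadjusted p under 0.05 stood Csf1r and Hba-a1. By list, the groups did not overlap for 2 of 6 myeloid and 1 of 2 erythroid markers, all lower in Ezh2 deficient arrays. Among 6 stroma and endothelium markers, 2 lay lower and 1 higher without overlap. Of the B cell, dendritic cell and NK cell markers 0 did. Over all genes, 7% lay lower and 5.89% higher without overlap, and 7.35% had an unadjusted p under 0.05 by limma. The myeloid markers Cebpb and Itgam had differences that round to 0.00. The part of these other cells in the values of the 7 inhibitor probe sets was not tested.

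Of the 4 inhibitor probe sets above the 40th percentile of brightness, that of Cdkn2c varied most over the 6 arrays (SD 0.24 in log2). The genes whose array values, each centred on its own mean, lay closest to it were Cox7c, Gsto1 and Itpa, with root mean square differences of 0.039, 0.051 and 0.055 in log2 over 6 arrays. These are the 3 closest genes among 22001 candidate probe sets, and with so few arrays close profiles occur among unrelated genes.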

How the data were processed

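The deposited table held a linear intensity for each of 45101 Affymetrix probe sets on every array. The software that made them is not given in the sources used here, and per the labels' protocols no step is recorded. Array medians of the deposited intensities were 163.3 to 188.1, a spread of 15.2%, above the tolerance of 10%, so the arrays were quantile normalised and expressed as log2(intensity + 43.3), the added value being the 20th percentile of intensity. Ezh2 fl/fl replicate 1 lay apart on the first principal component (-58.9, others 0.5 to 21.4). The number of arrays limits the precision.

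After removal of 64 control probe sets, limma (version 3.58.1, R 4.3.3) was fitted to all 45037 without a brightness filter, by a linear model over 6 arrays and eBayes with trend, two-sided, with Benjamini-Hochberg adjustment over all of them and no covariate. It was tested on simulated data. Intervals are 95% and come from the same fit. For single genes an exact permutation test was added. Gene lists used each gene's brightest probe set and were described by counts and medians.

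Gene symbols came from the platform annotation (34945 probe sets with 1 symbol, 932 with several, 9160 with none), updated through the RefSeq table, which matched 34741 and changed 0. The list entry Skp1a was matched to Skp1 as a synonym. Some of the listed genes were not analysed here. The members and lists were chosen with earlier results of these data known. The genes named were all members, Ezh2, per pathway list the called genes or else the 2 of smallest p above the 40th percentile of brightness, the nearest measured neighbour on each side of each locus, and the 3 genes most like the most variable member. Replicates were numbered within each group in the order of the samples. Alternatives were the deposited scaling, its median centring, pseudocounts of 10.8 and 173, robust eBayes (statmod 1.5.0), eBayes without trend, array weights, keeping probe sets above the 40th percentile, an adjusted p under 0.1, probe sets with several symbols, and each array left out in turn.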

Additional observations from a re-analysis of the deposited data

How the results depend on the processing

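No paired analysis was possible because the titles count the arrays 1 after another through both groups, so that no number is shared. The count of INK4 and Kip probe sets called was 0 under every alternative, including an adjusted p under 0.1, and 0 probe sets with several symbols named a member. The filter at the 40th percentile left Cdkn2a, Cdkn2b and Cdkn1c untested. The count of all probe sets called was 1. It was 0 by eBayes without trend and 0 to 2 when single arrays were left out, with 2 in the absence of Ezh2 fl/fl replicate 1 and 0 in the absence of any other array. Of 31 single results (2 of them for Cdkn1b) tested under up to 14 alternatives, 23 kept their direction and their side of the threshold. Among these 23 were Cdkn2a, Cdkn2b, Cdkn2c, Cdkn1b, Cdkn1c and Ezh2. The other 8 changed sign at differences that had not passed. The threshold was an unadjusted p under 0.05 by limma for Ezh2 and an adjusted p under 0.05 for the rest. By limma the adjusted p of Ezh2 ran from 0.0705 to 0.654 over the alternatives. With an array left out Cdkn2d ran from -0.01 to 0.09, Mtap from -0.07 to 0.07, 9630013D21Rik from -0.16 to 0.31, Faf1 from -0.11 to 0.01, Kri1 from -0.10 to 0.03, Ap1m2 from -0.32 to 0.02, 2810454H06Rik from -0.02 to 0.15 and Lockd from -0.24 to 0.10. Mtap was at -0.02 with array weights. For 9630013D21Rik the value was -0.01 under the deposited scaling, 0 with the lower pseudocount and -0.03 with array weights. Under the deposited scaling Kri1 and 2810454H06Rik were at 0, and under its median centring Kri1 was at 0.07 and Faf1 at 0.02. The cause of these sign changes was not tested. Median centring moved the median of all probe sets to 0.042 from -0.003, and with it 8 of 14 repressors, 6 of 7 activators, 10 of 13 genes of Cdk2 and p27 turnover and 32 of 50 neighbours had a positive difference. With the filter 2 of the repressors and 11 of the neighbours did, since fewer genes were tested. Without Ezh2 deficient replicate 2 only 7 of 21 proliferation genes did. Dim probe sets limit what Cdkn2a, Cdkn2b and Cdkn1c can show.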

Other observations

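The 10 measured genes nearest to Cdkn2d all had a difference at or below 0, with a median of -0.09, and 0 of them passed the limma test (1 at an unadjusted p under 0.05). That one was Dnm2, which encodes a dynamin of endocytosis, chosen after its value was seen. It averaged 1629 ± 53.3 in Ezh2 deficient and 1914 ± 116 in Ezh2 fl/fl arrays (SD, n = 3 each), a difference of -0.23 with limma adjusted p = 0.683 and groups that did not overlap. The common sign depended on the scaling, with 3 of the 10 positive when the values were used as deposited and 5 after median centring, and on the arrays, with 5 positive without Ezh2 deficient replicate 2.

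Near the Cdkn2a and Cdkn2b locus Tusc1, the farthest of the 5 neighbours on the side of Cdkn2b and chosen after its value was seen, was at 296.3, 354.6 and 320.4 in Ezh2 deficient arrays and at 585.0, 372.2 and 424.9 in Ezh2 fl/fl arrays. Its groups did not overlap, and the difference was -0.44 (limma adjusted p = 0.738), with an unadjusted p of 0.0304. At an unadjusted p under 0.05 by limma the neighbours of this locus thus included Dmrta1 at 0.72 and Tusc1 at -0.44, neither of which passed. Another neighbour, the dim Ifna5, was at 0.51 with overlapping groups (limma adjusted p = 0.805).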
